A study of Saccharomyces cerevisiae with 2 samples.

Results

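The strains described here lack 1 copy of a tubulin gene or of a gene whose product folds tubulin. They were chosen by gene symbol: TUB1, TUB2, TUB3, CIN1, CIN2, CIN4, PAC2, ALF1 and RBL2. Of these 9 strains, 8 gave a value on both arrays, out of 5219 Saccharomyces cerevisiae deletion strains that did so. The experiment started from 1 pool of 5896 haploid-convertible heterozygous diploid knockout strains, in which each strain carries its own DNA barcodes (tags). Part of the pool received the tub1D::URA3 cassette, which replaces a copy of TUB1, and the control part received the ura3D::URA3 cassette, so that cells of both pools carry URA3 and grow without uracil. Both pools were grown on SC-Ura plates for 2 days at 30 °C. Their tags were amplified from genomic DNA, labelled with Cy5 (control pool) and Cy3 (tub1 pool), and hybridised together to a Hopkins tag array, once in experiment 1 (array 1) and once in experiment 2 (array 2). The labels do not say whether the experiments were separate transformations, so the spread between arrays may be technical. The dyes were not swapped between the arrays, and a bias of a dye or a tag would be shared by them.

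Microtubules are polymers of a dimer of alpha- and beta-tubulin. In budding yeast TUB1 encodes the major alpha-tubulin, TUB3 a minor alpha-tubulin and TUB2 the beta-tubulin. New tubulin chains are folded by prefoldin and the CCT chaperonin and are then joined into dimers by the tubulin cofactors. Alf1 (the homolog of cofactor B) and Pac2 (cofactor E) bind alpha-tubulin, Rbl2 (cofactor A) and Cin1 (cofactor D) bind beta-tubulin, and Cin2 (cofactor C) works with Cin4, a small GTPase of the ARL2 type. RBL2 is known as a gene whose extra copies protect yeast cells from free beta-tubulin. The CIN genes were named for the chromosome instability of their mutants, which are also sensitive to benomyl, a drug that depolymerises microtubules.

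Values below are log2 ratios of tag signal with the deposited sign, after averaging the spots of a tag and subtracting the median of its tag set on that array. A strain's value is the mean of both its tags, given as mean ± SD over n = 2 arrays. The deposited direction is not stated. Scanner programs of this kind usually give Cy5 over Cy3, so a positive ratio likely means fewer tags of that strain in the tub1 pool. The TUB1 deletion strain, the check of the direction, had a value in 0 of 4 tag measurements, the only such strain among the 5220 named strains with 1 tag pair. Its level could therefore not be described, and every direction below rests on the likely reading alone. Across all 5219 strains the median was -0.09, with -0.09 on array 1 and -0.03 on array 2, and the median SD between arrays was 0.197.

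The strains ranged from a strongly positive ratio for TUB3 to a strongly negative ratio for PAC2. In descending order they were TUB3, RBL2, CIN4, CIN2, CIN1, TUB2, ALF1 and PAC2. Of the 8, 5 were positive on both arrays (TUB3, RBL2, CIN4, CIN2 and CIN1), as were 32.7% of all strains, and 2 were negative on both (ALF1 and PAC2), as were 41.7%. A positive ratio of 2-fold or more on both arrays was found for 3 of 8 (TUB3, RBL2 and CIN4), against 0.728% of all strains, and a negative one of that size for 1 of 8 (PAC2), against 3.74%. Neighbours in the order did not overlap in their array values except RBL2 and CIN4, which changed places between arrays. In the values of single tags, CIN2 and CIN1, CIN1 and TUB2, and ALF1 and PAC2 overlapped too. With 2 arrays an exact permutation test cannot give a p under 0.5. By limma across all strains, 0 of the 8 had an adjusted p under 0.05, as had 0% of all strains in either direction, and the smallest adjusted p was 0.229. At an unadjusted p under 0.05 by limma, 5 of 8 were positive (9.12% of all strains) and 1 was negative (11.7%).

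**Figure D1:**
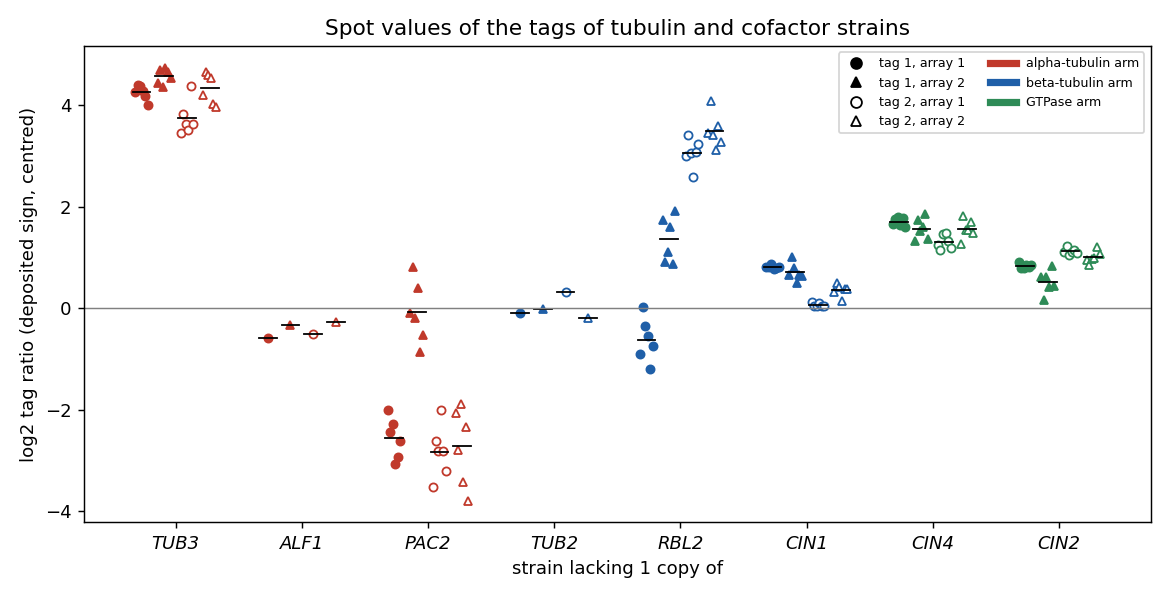
Each point is the log2 ratio of 1 spot (vertical axis) for 1 strain (horizontal axis). Filled points are the first tag, open points the second, circles array 1 and triangles array 2, the black bars are tag means, and the colours mark the arms of the pathway. TUB3 lies between 3.45 and 4.74 in all 24 spots, CIN4 between 1.13 and 1.86, and the tags of RBL2 are far apart.

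In the alpha-tubulin arm, TUB3 (YML124C, chromosome XIII) was the most positive of the 5219 strains. Its first tag gave 4.25 on array 1 and 4.57 on array 2, and its second tag gave 3.74 and 4.33. All of these were far above 0, and the tags overlapped. The mean was 4.22 ± 0.32 (18.7-fold, n = 2 arrays), with an unadjusted p of 0.000477 and an adjusted p of 0.229 by limma. The next strain of the series, DIA4, stood at 2.06 ± 0.40, so that TUB3 lay apart from every other strain by its mean. Ranked tag by tag, TUB3 was at rank 2 of 5215 first tags and rank 3 of 5209 second tags on array 1, and at rank 2 of 5211 first tags and rank 1 of 5213 second tags on array 2.

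TUB3 was also the strain whose lowest spot was highest. Its tags were each printed in 6 spots, 1 apart and 5 side by side in probe number. Over 2 tags and 2 arrays that gave 24 spot values, from 3.45 to 4.74. Of 762 strains with 24 spot values, 2 (TUB3 and CIN4) had every spot at least 2-fold positive, or 0.262%. Every spot was positive in 93 of them (12.2%) and in 4 of the 6 tubulin and cofactor strains so printed (TUB3, CIN4, CIN2 and CIN1), and every spot was negative in 9.71% and in 0 of these 6. The lone spot and the mean of the 5 side by side were 4.26 and 4.25 for the first tag on array 1 and 3.45 and 3.80 for the second tag on array 1. On array 2 they were 4.44 and 4.59 for the first tag and 4.20 and 4.35 for the second. The spot SD ran from 0.147 to 0.341, which is small beside the ratio itself.

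The nearest measured strains in gene order did not share the ratio of TUB3. PGA3, on one side, stood at 0.01 ± 0.13 and PHO84, a phosphate transporter gene on the other, at 0.06 ± 0.20, by limma with adjusted p of 0.963 and 0.817. In a window of up to 10 measured strains on either side, chosen after the values were seen, there were 17 strains with a median of 0.01. The highest there was RSC9, which encodes part of the nucleosome remodeller RSC, at 1.83, with 2 measured strains between it and TUB3. RSC9 was thus among the most positive strains of the series, above RBL2, which was at rank 5 of 5219. TUB3 and TUB1 lie on the same chromosome with 40 genes between them in the gene table, and for the 410 measured strains of chromosome XIII the median was -0.20.

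ALF1 (YNL148C), the cofactor B homolog that binds alpha-tubulin, was slightly negative. Its first tag gave -0.59 on array 1 and -0.33 on array 2, and its second tag gave -0.50 and -0.28. The tags agreed more closely than in most strains: on array 1 88.0% of strains and on array 2 91.2% had tags at least as far apart. Each tag of ALF1 had 1 spot, so its spot scatter cannot be given. The mean was -0.43 ± 0.17 (n = 2), with an adjusted p of 0.265 by limma, and 30.1% of strains were lower. The strains on either side, PGA2 and LSM7, both averaged -0.52 (SD 1.10 and 0.206), so ALF1 was no lower than its neighbours in gene order.

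PAC2 (YER007W), the cofactor E homolog that also binds alpha-tubulin, had the lowest ratio of the 8 strains. On array 1 its first tag gave -2.56 and its second -2.83. On array 2 the second tag was again low, at -2.72, but the first stood at -0.08. The strain mean was therefore -2.05 ± 0.91 (4.13-fold negative, n = 2), with an unadjusted p of 0.0222 and an adjusted p of 0.229 by limma, and 1.23% of strains were lower. From the first tag alone the mean was -1.32 and from the second alone -2.78.

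The spots of PAC2 show where its measurements part. For the first tag, the 6 spots ran from -3.06 to -2.0 on array 1 and from -0.87 to 0.82 on array 2, so the ranges did not overlap and the sign differed among the spots of array 2. For the second tag they ran from -3.52 to -2.0 on array 1 and from -3.79 to -1.90 on array 2, nearly the same range. The spots scattered widely. On array 2 the spot SD was 0.612 for the first tag and 0.759 for the second, and 3.59% and 1.79% of tags with 6 spots scattered more. Tags of PAC2 as far apart as on array 2 were found in 2.77% of strains. Spot intensities were not used here, so whether these were weak spots was not tested. The neighbours of PAC2 in gene order, NUG1 (0.61 ± 0.07) and TMA20 (0.43 ± 0.18), were positive on both arrays. The 20 strains in the window of 10 measured strains on either side had a median of 0.03, and the lowest stood at -1.17.

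In the beta-tubulin arm, TUB2 (YFL037W), the beta-tubulin gene, stood close to 0. Its tags gave -0.10 and 0.32 on array 1 and -0.01 and -0.19 on array 2, on both sides of 0. The mean was 0.00 ± 0.15 (n = 2), with an adjusted p of 0.987 by limma. Loss of 1 copy of TUB2 and loss of 1 copy of TUB3 thus lay 4.22 apart in the means, and no value of either overlapped the other. TUB2 had 1 spot per tag, so spot scatter cannot be given. The strains beside TUB2 were YPT1 at -0.18 ± 0.27 and RPO41 at -0.49 ± 0.27.

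RBL2 (YOR265W), the cofactor A homolog that binds beta-tubulin, had the second highest mean of the 8, but its tags did not agree. Its first tag gave -0.62 on array 1 and 1.36 on array 2, and its second tag gave 3.06 and 3.48. The second tag was higher than the first by 3.68 on array 1 and by 2.13 on array 2, and tags at least so far apart were found in 3.39% and 4.28% of strains. The strain mean was 1.82 ± 0.85 (3.53-fold, n = 2), with an unadjusted p of 0.0254 and an adjusted p of 0.229 by limma. Taken by its second tag RBL2 averaged 3.27, and it was at rank 4 of 5209 on array 1 and rank 2 of 5213 on array 2, next to TUB3. Taken by its first tag it averaged 0.37, with ranks of 4088 of 5215 and 42 of 5211.

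The spots of each RBL2 tag scattered less than the distance between its tags, but more than those of most tags with 6 spots. For its first tag, 8.96% of such tags on array 1 and 6.27% on array 2 scattered more. For its second tag the shares were 18.3% and 10.6%. The second tag ran from 2.59 to 3.42 on array 1 and from 3.12 to 4.07 on array 2, and its lone spot (2.99 and 3.45) matched the mean of the 5 side by side (3.07 and 3.49) to within 0.1. The first tag ran from -1.20 to 0.02 on array 1 and from 0.87 to 1.91 on array 2. The ranges of both tags did not overlap on either array. For the first tag the lone spot and the mean of the 5 side by side were further apart, at -0.91 and -0.57 on array 1 and 1.74 and 1.28 on array 2.

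Strains beside RBL2 in gene order had a like difference between tags. DSE3, on one side, gave -2.94 and -2.60 with its first tag and 1.0 and 1.45 with its second, and PNT1, on the other, gave -2.44 and -2.01 with its first and 1.22 and 0.52 with its second. In the window of 10 measured strains on either side, 6 of 20 strains (SEC63, OSW1, RPT4, GPN2, DSE3 and PNT1) had a second tag at least 2-fold above the first on both arrays, against 4.80% of 5191 strains with all 4 tag values. In the windows of the other 7 strains between 0 and 2 strains did so. The window and this count were chosen after the values were seen. The part that this regional difference between tags has in the RBL2 ratio was not tested. The first tags of DSE3 and PNT1 lay below the first tag of RBL2 on both arrays, and their second tags below its second tag. On array 1 the first tag of RBL2 (-0.62) was itself at rank 4088 of 5215, and other strains of the window had higher first tags. The strain means of DSE3 (-0.77 ± 0.28) and PNT1 (-0.68 ± 0.10) were negative.

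**Figure D2:**
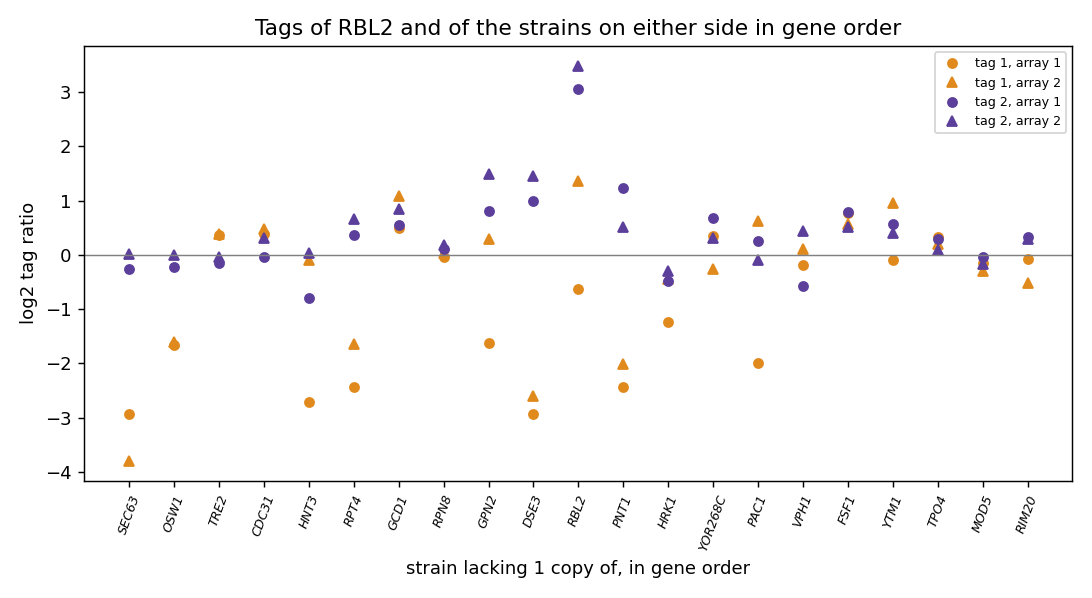
The log2 ratio of each tag (vertical axis) is shown for RBL2 and for the 10 measured strains on either side in gene order (horizontal axis). Orange is the first tag, purple the second, circles array 1 and triangles array 2. RBL2, DSE3 and PNT1 each have a second tag far above the first, and RBL2 is the highest of the 3 with either tag.

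CIN1 (YOR349W), the cofactor D homolog that binds beta-tubulin and is needed for normal microtubule stability in yeast, was slightly positive with every tag. Its first tag gave 0.81 on array 1 and 0.70 on array 2, and its second gave 0.06 and 0.35. All 24 spot values were above 0, but the lowest was 0.03, and on array 1 the second tag lay barely above the median of the array. The mean was 0.48 ± 0.07 (1.40-fold, n = 2), with an unadjusted p of 0.0472 and an adjusted p of 0.239 by limma, and 89.2% of strains were lower. One neighbour, the proline permease gene PUT4, was nearly as high at 0.40 ± 0.02, and the other, MNE1, was at -0.47 ± 0.24.

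In the GTPase arm both strains were positive with both tags on both arrays, as were 20.4% of strains with 4 tag values. CIN4 (YMR138W, chromosome XIII), which encodes the ARL2-type GTPase, gave 1.70 and 1.56 with its first tag and 1.30 and 1.56 with its second. The 24 spots ran from 1.13 to 1.86. The mean was 1.53 ± 0.04 (2.89-fold, n = 2), the smallest SD of the 8 strains, with an unadjusted p of 0.00258 and an adjusted p of 0.229 by limma. CIN4 was at rank 8 of 5219 strains. Among the 762 strains with 24 spot values its lowest spot came next after that of TUB3, and DIP5, a permease gene, followed at 0.96. Its neighbours in gene order were positive on both arrays but lower, PSO2 at 0.37 ± 0.04 and RIM11 at 0.33 ± 0.08. In both, the second tag carried the ratio, with 0.91 and 0.72 for PSO2 and 0.71 and 0.53 for RIM11, whereas the first tags lay between -0.11 and 0.07. Of the tags of CIN4, the first was the higher on array 1, and both stood at 1.56 on array 2. The part that a difference between tags in this region has in the CIN4 ratio was not tested.

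CIN2 (YPL241C), the cofactor C homolog, followed at a lower level. Its first tag gave 0.83 on array 1 and 0.51 on array 2, and its second gave 1.12 and 1.0. The 24 spots were all positive, from 0.15 to 1.22. The mean was 0.87 ± 0.16 (1.82-fold, n = 2), with an unadjusted p of 0.0145 and an adjusted p of 0.229 by limma. CIN2 was at rank 106 of 5219 strains. CIN4 exceeded CIN2 by 0.53 on array 1 and 0.80 on array 2, and the lowest tag of CIN4 (1.30) lay above the highest of CIN2 (1.12). Beside CIN2, HSP82, a gene for the chaperone Hsp90, stood at 0.59 ± 0.10, and IQG1, an actin ring gene, at -0.04 ± 0.15.

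**Figure D3:**
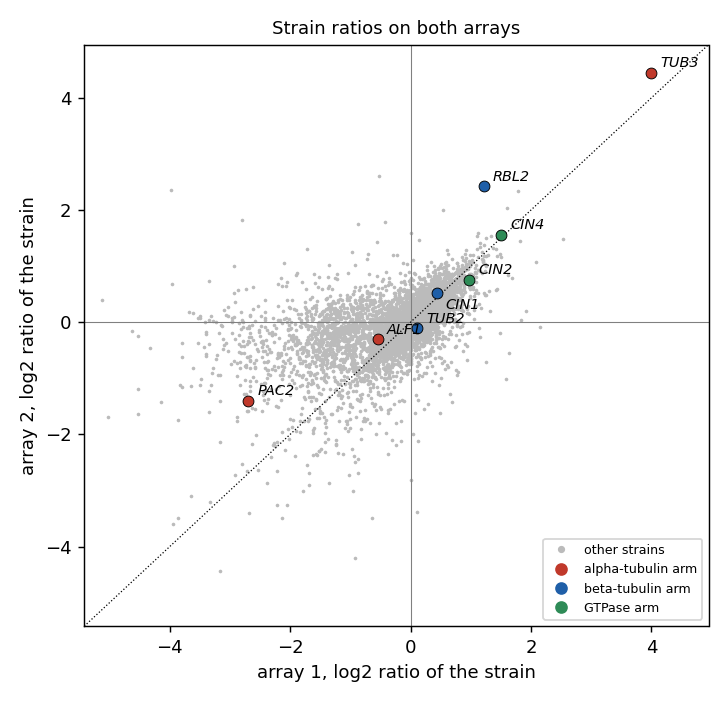
Each point is a strain, with its log2 ratio on array 1 (horizontal axis) and on array 2 (vertical axis). Grey points are the other strains, coloured points the tubulin and cofactor strains by arm, and the dotted line marks equal values. TUB3 lies alone at 3.99 and 4.45, CIN4 lies on the line at 1.5 and 1.56, and PAC2 lies at -2.69 and -1.40.

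The arms of the pathway were compared as a description, since strains are not replicates. The alpha-tubulin arm was the most uneven: TUB3, ALF1 and PAC2 spanned 6.27, from 4.22 to -2.05, with 1 strain positive and 2 negative on both arrays. The beta-tubulin arm (RBL2, CIN1 and TUB2) spanned 1.81, with 2 strains positive on both arrays and 0 negative. The GTPase arm (CIN4 and CIN2) spanned 0.665 and both its strains were positive on both arrays. Of all strains, 32.7% were positive and 41.7% negative on both arrays. The medians were -0.43 ± 0.17 for the alpha-tubulin arm, 0.48 ± 0.07 for the beta-tubulin arm and 1.20 ± 0.06 for the GTPase arm (SD, n = 2 arrays).

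On each array the median of the GTPase arm was above those of both tubulin arms. It exceeded that of the alpha-tubulin arm by 1.79 on array 1 and 1.46 on array 2, and that of the beta-tubulin arm by 0.80 and 0.63. The beta-tubulin arm exceeded the alpha-tubulin arm by 0.98 and 0.83. The difference between the GTPase and beta-tubulin arms depended on how the strains were assigned. It was -0.05 when CIN1, which is often grouped with CIN2 and CIN4 by mutant phenotype, was moved to the GTPase arm, and 0.05 when TUB2 and TUB3 were left out. The alpha-tubulin median is the value of ALF1, so it describes neither TUB3 nor PAC2, and the beta-tubulin median is the value of CIN1, so it describes neither TUB2 nor RBL2.

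**Figure D4:**
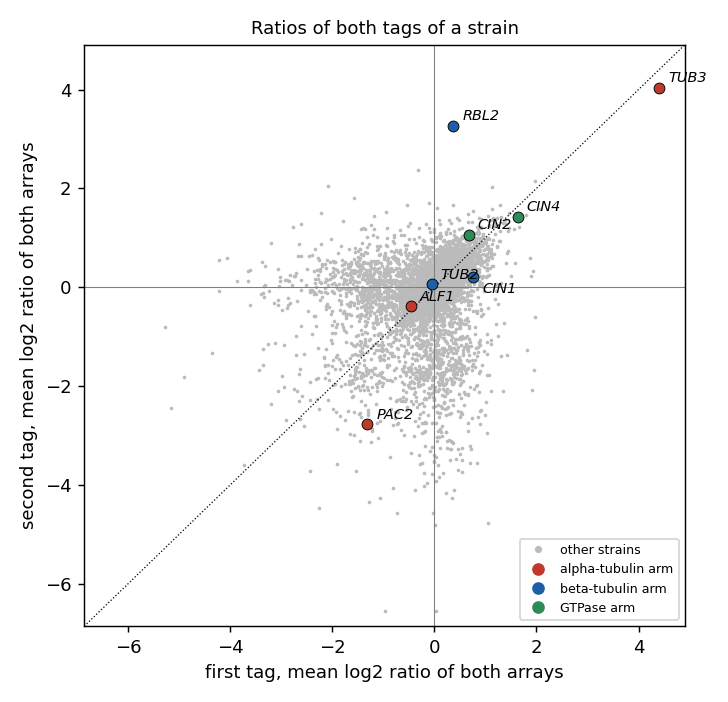
Each point is a strain, with the mean log2 ratio of its first tag (horizontal axis) and of its second tag (vertical axis) over both arrays. Grey points are the other strains and the dotted line marks equal tags. TUB3 (4.41 and 4.03), CIN4 (1.63 and 1.43), TUB2 and ALF1 lie near the line, RBL2 lies far above it (0.37 and 3.27) and PAC2 below it (-1.32 and -2.78).

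Agreement between tags divided the 8 strains. All 4 tag values were positive in 4 strains (TUB3, CIN4, CIN2 and CIN1), as in 20.4% of strains with 4 tag values, and negative in 2 (ALF1 and PAC2), as in 20.1%. In 2 of 8 (TUB3 and CIN4) all 4 values were 2-fold positive or more, against 0.405% of strains, and in 0 of 8 all were 2-fold negative or more, against 0.597%. Over all strains the median distance between tags was 0.458 on array 1 and 0.351 on array 2. TUB3, with tags 0.509 and 0.241 apart, was close to that, and CIN4, with tags 0.4 and 0.002 apart, was below it on both arrays.

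A fit in which both tags are kept and the tags of an array form a random block gives each strain 4 values in place of 2. By that limma fit TUB3 (adjusted p 0.00777), CIN4 (0.0189) and CIN2 (0.0355) passed the threshold, 3 of 8 against 6.71% of all strains on the positive side, and 0 of 8 passed on the negative side, against 3.18%. PAC2 (0.0608), ALF1 (0.0646), CIN1 (0.0844) and RBL2 (0.114) did not pass. The correlation that this fit estimated within an array was -0.289, that is, the tags of an array tended to lie on opposite sides of the strain's mean, and a negative value makes the fit's errors smaller. When tags of the same set formed the block instead (an alternative added after the data were seen), the correlation was 0.180. TUB3 then passed (adjusted p 0.0241), as 1 of 8 against 0.0192% of strains on the positive side, while CIN4 (0.0772) and CIN2 (0.119) did not. By that fit 0 of 8 passed on the negative side, against 0.0383%.

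Strains with 4 tag values most like TUB3, CIN4 and CIN2 were sought by the Euclidean distance over these values. The strains nearest to TUB3 were DIA4, a mitochondrial seryl-tRNA synthetase gene, at a distance of 4.37, RSC9 at 4.80 and APE3, a vacuolar aminopeptidase gene, at 5.26, and CIN4 came next at 5.4. A distance adds up over 4 values, so it is not on the scale of a strain's mean ratio. The strains nearest to CIN4 were RSC8 (distance 0.349; 1.44 ± 0.15), another RSC subunit gene, ERG12 (0.421; 1.48 ± 0.01), the mevalonate kinase gene, and BLI1 (0.494; 1.38 ± 0.18), a subunit of the endosomal BLOC-1 complex. CIN2 was in place 100 from CIN4, at 1.48. Nearest to CIN2 were ROT2 (0.0965; 0.88 ± 0.16), a glucosidase of the endoplasmic reticulum, GCN5 (0.144; 0.82 ± 0.10), a histone acetyltransferase, and RPP1B (0.165; 0.93 ± 0.09), a ribosomal stalk protein. CIN4 and CIN2 thus had the sign in common, but many strains were nearer to either.

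Genes that act before the cofactors were described in the same way. In the CCT chaperonin, which folds tubulin and actin chains, 2 of 8 strains were positive on both arrays and 3 negative. The median of the strain means was 0.05, but the medians on the single arrays were -0.09 (array 1) and -0.03 (array 2). Of all strains, 32.7% were positive and 41.7% negative on both arrays. CCT4 was highest at 0.30 ± 0.02 and CCT7 lowest at -1.42 ± 1.33, with -2.36 on array 1 and -0.48 on array 2. In prefoldin, which hands unfolded tubulin to CCT, both arrays were positive for 3 of 6 strains and negative for 2. Here the median of the strain means was -0.03, but the medians on the single arrays were 0.12 (array 1) and 0.10 (array 2). The values ran from -0.71 ± 0.78 for GIM3 to 0.62 ± 0.01 for YKE2. PLP2, which encodes a phosducin-like protein that assists CCT, stood at -1.52 ± 1.68, from -2.70 on array 1 to -0.33 on array 2. In these 3 lists 0 strains were at least 2-fold from 0 on both arrays. Of all strains, 0.728% were so on the positive side and 3.74% on the negative side.

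Genes that act on assembled tubulin, in microtubule nucleation and at microtubule ends, had the following ratios. In the gamma-tubulin complex and its receptors 2 of 4 measured strains were positive on both arrays (32.7% of all strains) and 1 was negative (41.7%), and the median was 0.32. SPC72, the receptor on the cytoplasmic face of the spindle pole, was highest at 0.59 ± 0.17, and TUB4, the gamma-tubulin gene, lowest at -0.36 ± 0.16. At the microtubule ends 3 of 4 strains were positive on both arrays and 1 negative, and the median was 0.52. STU2, a microtubule polymerase, was highest at 0.82 ± 0.10, close to CIN2, and BIM1, the EB1 homolog, lowest at -1.04 ± 0.75. In these lists too, 0 strains were at least 2-fold from 0 on both arrays, against 0.728% (positive) and 3.74% (negative) of all strains. By limma 0 of the 23 measured strains of the 5 lists passed. At an unadjusted p under 0.05 by limma, 5 were positive, against 9.12% of all strains, and 0 were negative, against 11.7%. Of these 23 strains, 10 had a positive ratio and 8 a negative ratio on both arrays, against 32.7% and 41.7% of all strains. Their median was 0.11. For the 8 tubulin and cofactor strains the median was 0.67, with 0.70 on array 1 and 0.64 on array 2, beside -0.09 for all strains.

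**Figure D5:**
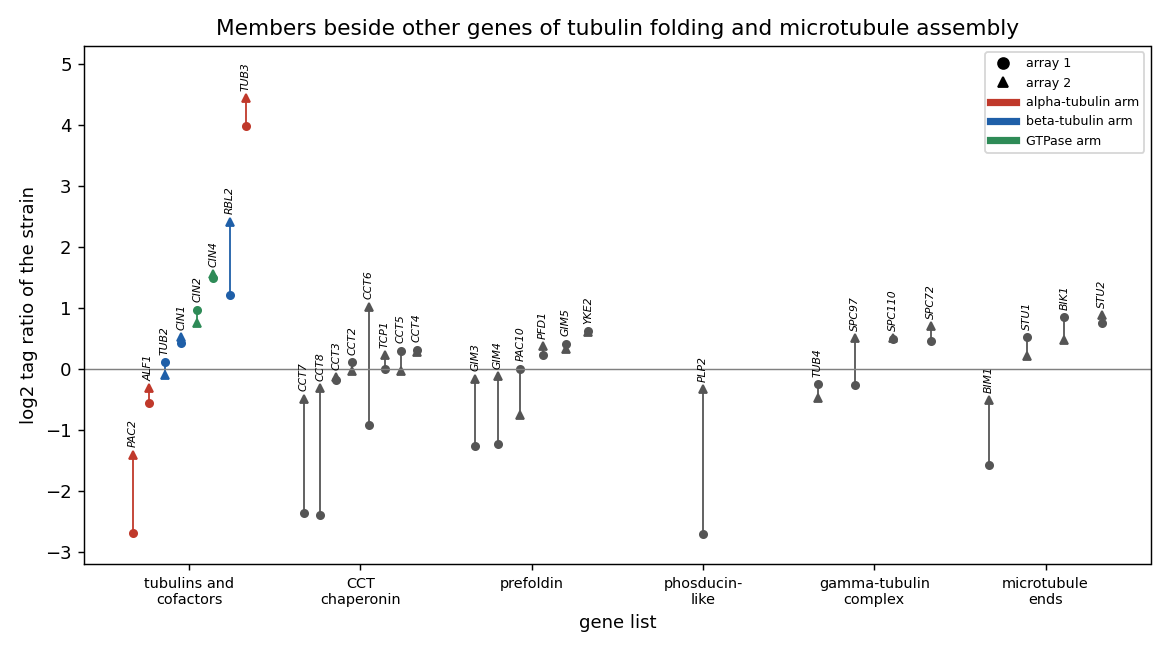
Each line joins the log2 ratios of a strain on array 1 (circle) and array 2 (triangle), on the vertical axis, with strains grouped by gene list along the horizontal axis and sorted by their mean. The tubulin and cofactor strains are coloured by arm. TUB3, RBL2 and CIN4 lie above the strains of the other lists on both arrays, and the strains of CCT with the lowest means differ widely between arrays.

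Taken over both sides of each gene, the strains next to the tubulin and cofactor genes centred near 0. Of the 16 strains beside the 8 measured genes, 6 were positive and 5 negative on both arrays, against 32.7% and 41.7% of all strains. The median of these 16 was -0.01, with -0.02 on array 1 and 0.04 on array 2. On both arrays 0 of them were at least 2-fold from 0, against 0.728% (positive) and 3.74% (negative) of all strains. NUG1, beside PAC2, was highest at 0.61 ± 0.07 and DSE3, beside RBL2, lowest at -0.77 ± 0.28. The strains beside TUB1 were negative on both arrays, AIM33 at -1.42 ± 1.26 and YML083C at -3.37 ± 0.39. In both, the tags differed by more than 2-fold on array 2, with 0.33 and -1.39 for AIM33 and -1.17 and -5.01 for YML083C.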

How the data were processed

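The labels describe 2 arrays of 1 group, each with tags of the control pool (Cy5) and of the tub1 pool (Cy3), read with GenePix 5.1, per the labels. They name total RNA as the molecule, although tags were amplified from genomic DNA. The authors deposited 1 log2 ratio per spot: 2 to the power of the value came within 0.001 of a number with 2 decimals for 100% of values. Background correction, normalization and ratio direction are not given in the sources. The number of arrays limits the precision. In 2 values the linear ratio was 1e+06, and these were treated as missing.

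Probes were named through the platform annotation, and 18786 of 18794 named probes matched the NCBI gene table (assembly R64), which gave symbols, locus tags and gene order. No build is named for the array, so no coordinates are given. The second tag set lies 10971 probe numbers after the first. Of 5325 symbols, 105 with more than 1 tag pair were left out, which left 5220. Of these, 781 had 6 spots per tag and 4439 had 1. Spots were averaged, and centring raised array 1 by 0.12 and array 2 by 0.04. Strains were tested against 0 with limma 3.58.1 in R 4.3.3 (intercept, eBayes, two-sided, Benjamini-Hochberg over 5219 strains), after a test on simulated data. Tables and plots used Python 3.11.15, pandas 2.3.3 and matplotlib 3.10.9.

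Alternatives were uncentred ratios, spot medians, each tag set alone, tags at the smallest ratio left out, quantile normalization, robust eBayes, random blocks, other arms and leaving out an array. Named were the 9 genes, the highest and lowest of each list, the genes beside them and the 3 strains nearest to TUB3, CIN4 and CIN2. SEC63, OSW1, RPT4, GPN2, DIP5 and values of single neighbours were named after their values were seen. The genes and lists were chosen with earlier results of these data known, so no count over them is independent support. SPC98 had no value in use here. An item of these lists is not reported here.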

Additional observations from a re-analysis of the deposited data

How the results depend on the processing

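No paired analysis was possible because the design has 1 group. Across 11 alternatives TUB3 (3.99 to 4.45), CIN4 (1.43 to 1.63), CIN2 (0.67 to 1.06), CIN1 (0.21 to 0.76), RBL2 (0.37 to 3.27), ALF1 (-0.55 to -0.31) and PAC2 (-2.78 to -1.32) kept their sign. TUB2 changed sign, to -0.077 without centring, -0.015 after quantile normalization, -0.056 with the first tag set and -0.10 without replicate 1 (0.11 without replicate 2), all within its spread. Limma called 0 positive and 0 negative strains except with the array as random block (350 and 166) and, chosen after seeing the data, with the tag set as random block (1 and 2), in which each strain has 4 values. The difference of the GTPase and alpha-tubulin arms became 1.29 with CIN1 in the GTPase arm and 2.43 with cofactors only. That of the GTPase and beta-tubulin arms became -0.047 and 0.048 in these settings, 0.85 with the first and 0.91 with the second tag set. That of the beta- and alpha-tubulin arms became 1.34, 2.39, 0.64 and 0.73. These follow from which strains and tags enter each median. Leaving out each replicate gave 1.46 to 1.79, 0.63 to 0.80 and 0.83 to 0.98. Spot medians moved no arm difference by more than the spread between arrays. The smallest ratio and the number of arrays limit what can be said of strongly negative strains.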
